A study of Mus musculus with 12 samples.

Results

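Gastrocnemius, a calf muscle, was sequenced from C57BL/6 mice described as 8 weeks old, and 1 of the 12 libraries, WT ZT0 replicate 2, held a set of transcripts, many of them of immune cells, well above their level in every other library. Of the 10475 genes in the deposited table of transcript abundance (TPM, reads per transcript length, scaled to the same total in each library), 257 (2.45%) reached at least 5 TPM in that library and at least 3 times the highest value of the other 11. The 248 of them (2.37% of the table) that are described here were selected on these TPM values and remain after symbols beginning with Psm, Itg, Cts, Rpl, Rps, Hsp, Mmp or Adamts were left out, and they are called the members. The 4 groups of 3 libraries were wild type (WT) and transgenic (TG) mice, each at Zeitgeber time (ZT) 0, when the lights came on, and ZT12, when they went off. All were fed chow and had 12 h of light and 12 h of darkness a day. TG mice overexpress E4BP4, a transcriptional repressor, specifically in the liver, so the muscle of both genotypes is not itself labelled as altered. The promoter of the transgene is not given in the sources used here, and nothing in the labels says whether libraries came from separate animals, so p-values measure only the spread between these libraries.

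As background, a lymph node is packed with B and T lymphocytes that are small, migratory cells. They carry leukocyte surface proteins such as CD52 and tetraspanins, move by remodelling actin with proteins such as coronin 1A and L-plastin, and respond to antigen through kinases and phosphatases. B cells and dendritic cells present peptides on major histocompatibility complex (MHC) class II, nearly all nucleated cells present them on class I, and stromal cells of the node secrete CCL21 to draw in cells that carry its receptor. Muscle fibres make little of most of these products, and resident macrophages are the main leukocytes of healthy muscle.

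Genes below 1 TPM in WT ZT0 replicate 1 are not in the deposited table, so that a gene near 0 there could not be a member. Listed genes held 9.21e+06 to 2.02e+07 reads per library, recovered from TPM and transcript length, and 1.32e+07 in WT ZT0 replicate 2. That library was also shifted as a whole: it was the highest of 12 for 5632 genes (53.8%), its median TPM was 9.26 against 4.96 to 7.25 elsewhere, and its median-of-ratios factor was 1.29 against 0.783 to 1.12. When every library was divided by its factor, 162 of the 248 genes still met both thresholds, and no gene was added among the symbols that the rule allows. Marker genes of skeletal muscle fibres summed to 109000 TPM in it and to 115000 to 128000 TPM in the others, so all libraries carried the labelled tissue.

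Because the comparison of WT ZT0 replicate 2 with the other libraries chose the members, its values are a description and carry no test. The ratio to the highest other library had a median of 4.41 over the members, beside 1.03 over all listed genes. It was at least 10 for 22 members and at least 5 for 97, and it lay under 4 for 99. The last members inside the fold threshold were Gbp9 at 3.00, Fam65b at 3.01 and Tyrobp at 3.01, and the first genes outside it were Smap2 at 2.998, Usp18 at 2.987 and Pacs1 at 2.983. At the TPM threshold, BC037034 at 5.16 TPM, Ap1g2 at 5.4 and Cdca4 at 5.41 were just inside, and Gng2 at 4.96, Gbp4 at 4.85 and Notch2 at 4.76 just outside. The same 2 numbers applied to each other library in turn gave 1 gene in WT ZT0 replicate 1, 1 in WT ZT12 replicate 2 and 0 in the other 9. WT ZT0 replicate 2 was among the libraries to be exceeded, so a gene highest in it could not count for another library.

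**Figure D1:**
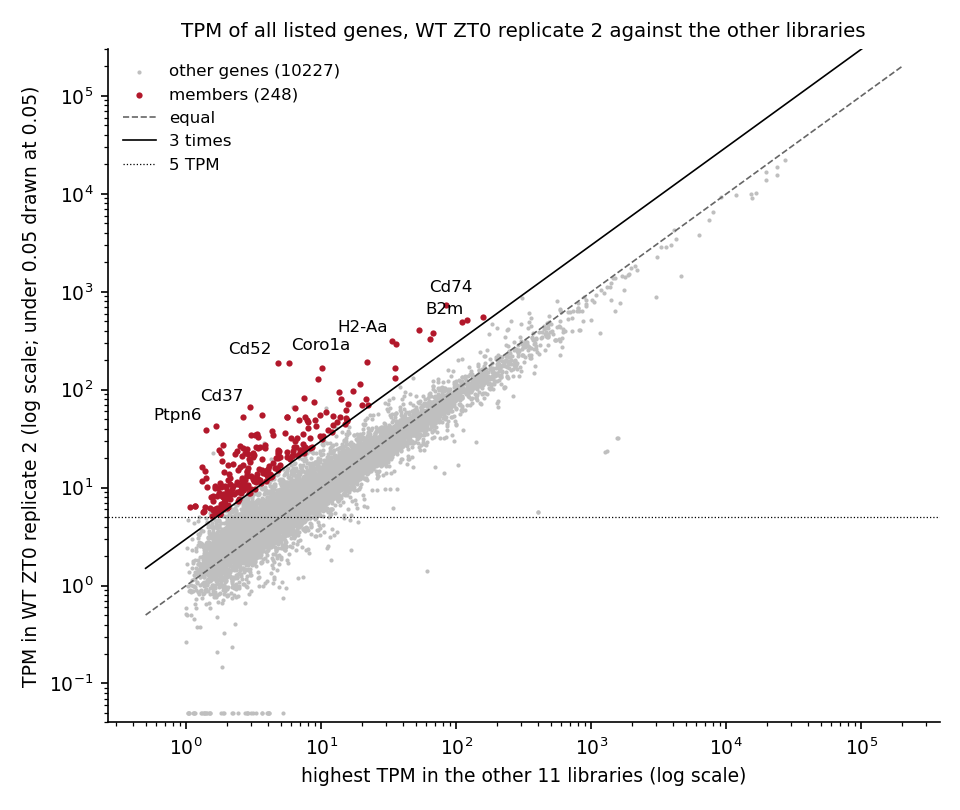
TPM of each of the 10475 listed genes in WT ZT0 replicate 2 (vertical, log scale) against its highest TPM in the other 11 libraries (horizontal, log scale), with the 248 members in red. The members lie above the line of 3 times and above 5 TPM, and Cd52 and Coro1a stand 39.6 and 32.3 times above their highest other library.

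Cd52 encodes a small lipid-anchored surface glycoprotein of lymphocytes and other leukocytes. Its TPM, replicates 1 to 3 in order, was 1.79, 189 and 2.12 at ZT0 and 2.04, 3.8 and 4.78 at ZT12 in WT muscle, and 1.12, 3.28 and 1.78 at ZT0 and 3.74, 4.26 and 2.09 at ZT12 in TG muscle. The value of 189 TPM rested on 1329 reads (95% Poisson interval 1260 to 1400, counting error only), whereas the other libraries held 7 to 58 reads. The other 11 libraries therefore lay within a few TPM of each other, and their 4 groups overlapped.

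Coro1a encodes coronin 1A, an actin-binding protein that lymphocytes need for migration and survival. Its TPM was 3.32, 188 and 2.74 at ZT0 and 3.37, 4.84 and 3.72 at ZT12 in WT muscle, and 2.48, 3.29 and 1.62 at ZT0 and 3.24, 5.82 and 1.87 at ZT12 in TG muscle. Cd37, a tetraspanin of B cells and, at a lower level, of other leukocytes, had a TPM of 1.1, 66.8 and 0.869 at ZT0 and 1.05, 2 and 1.62 at ZT12 in WT muscle, and 1.19, 2.29 and 0.505 at ZT0 and 0.542, 2.96 and 0.947 at ZT12 in TG muscle. For both genes 1 library stood far above and TG ZT12 replicate 2 was the second highest. Without the high library the groups overlapped for Cd37, whereas for Coro1a all 3 WT ZT12 libraries lay above WT ZT0 replicates 1 and 3 and above TG ZT0, and the TG groups overlapped each other.

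The rest of the 10 highest ratios also belonged mostly to genes of leukocytes. Hvcn1, the voltage-gated proton channel of B cells and phagocytes, was at 38.9 TPM against 0.478 to 1.40 elsewhere (27.9 times the highest). Ptpn6, the phosphatase SHP-1 that restrains antigen receptor signalling, was at 42.6 against 0.434 to 1.67 (25.6 times), and Limd2, a LIM domain protein, at 52.4 against 1.55 to 2.62 (20 times). Shisa5, a membrane protein of the endoplasmic reticulum linked to apoptosis, was at 166 against 6.00 to 10.2 (16.4 times). Lcp1, the actin bundler L-plastin, was at 55.5 against 0.75 to 3.66 (15.2 times). Selplg, the P-selectin ligand, was at 27.0 against 0.236 to 1.89 (14.3 times), and Tap1, which pumps peptides into the endoplasmic reticulum for class I, was at 24.3 against 0.744 to 1.74 (14.0 times). Hvcn1 lies on the opposite strand to the listed gene Tctn1, itself a member at 16.1 TPM, and the reads of their overlap are uncertain, since the use of strand in counting is not given in the sources used here.

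**Figure D2:**
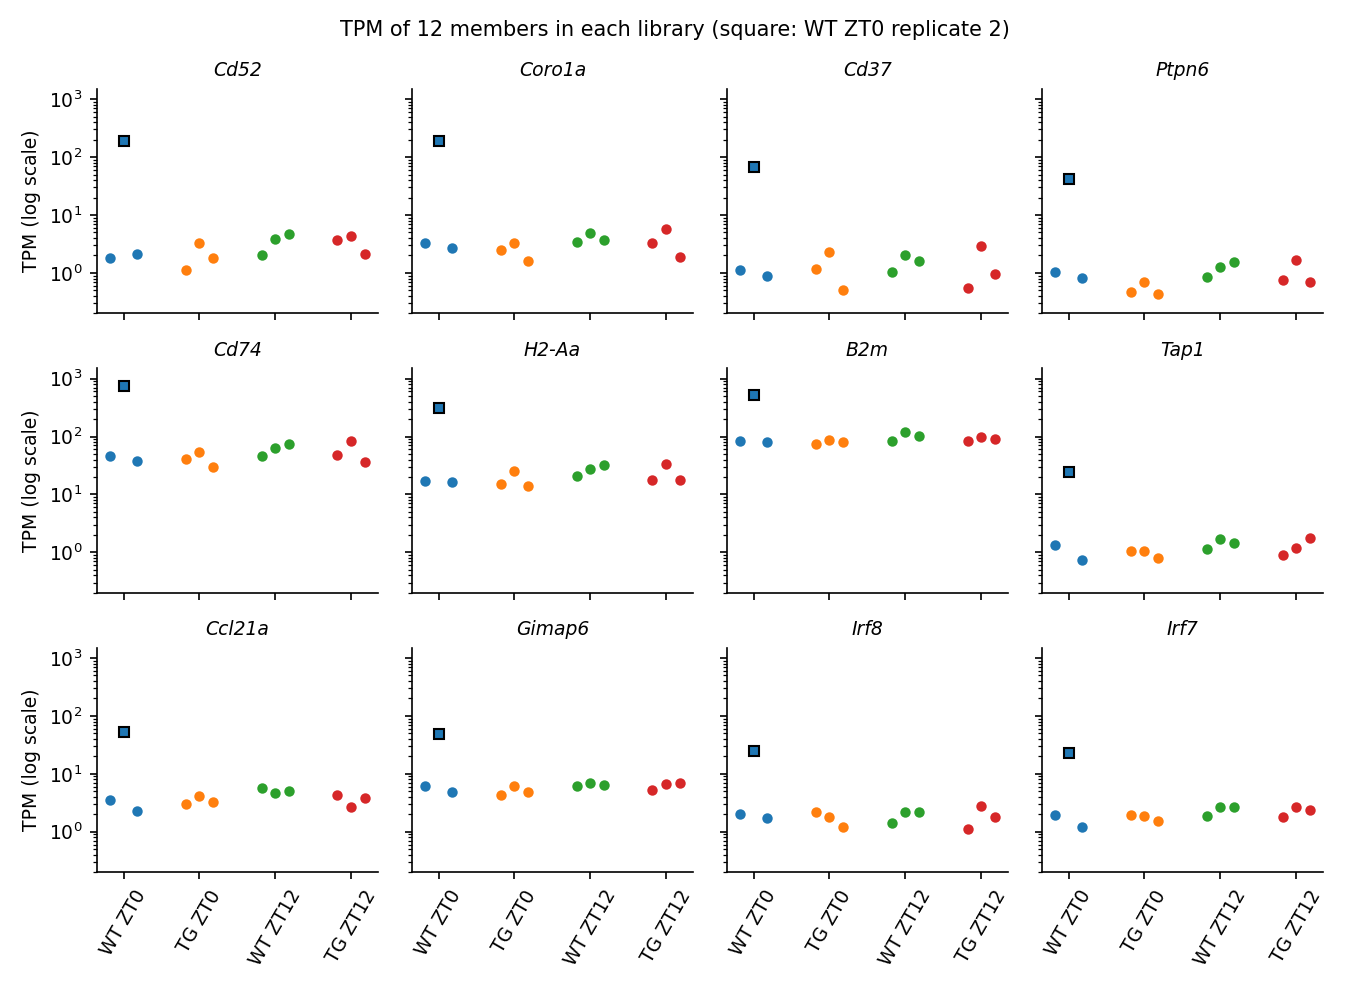
TPM (vertical, 1 log scale for all panels) of 12 members in each of the 12 libraries, by group (horizontal), with WT ZT0 replicate 2 as a square. In each panel the square lies above all other points, and the other points of the 4 groups lie close together. Examples are Ccl21a at 53.2 against at most 5.61 TPM and Cd74 at 739 against at most 83.5 TPM.

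Promoter sequences are shown for 4 members whose upstream bases hold letters resembling binding motifs of factors known in immune cells, beside their expression. RefSeq (GRCm38.p6) gave a window of 250 bases before and 50 after the start for 187 of the 248 members, and for 7778 of the listed genes, counting a promoter only where its start lay within 500 bases of the start in the deposited files. Printed are the 250 bases before the start, 5′ to 3′ on the gene's strand, with the matches in capitals. For Cd37 (chr7:45238840-45239089, minus strand) and Fmnl1 (chr11:103170888-103171137, plus strand), a formin that builds actin filaments in leukocytes, the capitals are GAGGAAGT, a PU.1 type ETS motif, read on the other strand. For B2m (chr2:122147437-122147686, plus strand) they are an interferon response motif (GAAA, any 2 bases, GAAA) and an NF-kB motif (GGGAC followed at once by TTTCC), the latter read on the other strand. For H2-T23 (chr17:36032702-36032951, minus strand), a class I gene, they are the interferon response motif on the other strand.
Cd37: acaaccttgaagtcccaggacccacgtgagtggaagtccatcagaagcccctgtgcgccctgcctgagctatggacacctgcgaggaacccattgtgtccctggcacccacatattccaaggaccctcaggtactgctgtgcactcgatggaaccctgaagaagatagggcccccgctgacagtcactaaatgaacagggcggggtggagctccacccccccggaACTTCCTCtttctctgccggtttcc
Fmnl1: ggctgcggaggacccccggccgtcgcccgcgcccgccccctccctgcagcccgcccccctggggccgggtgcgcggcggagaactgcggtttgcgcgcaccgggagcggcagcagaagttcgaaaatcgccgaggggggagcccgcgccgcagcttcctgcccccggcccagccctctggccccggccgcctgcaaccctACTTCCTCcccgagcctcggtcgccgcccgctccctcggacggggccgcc
B2m: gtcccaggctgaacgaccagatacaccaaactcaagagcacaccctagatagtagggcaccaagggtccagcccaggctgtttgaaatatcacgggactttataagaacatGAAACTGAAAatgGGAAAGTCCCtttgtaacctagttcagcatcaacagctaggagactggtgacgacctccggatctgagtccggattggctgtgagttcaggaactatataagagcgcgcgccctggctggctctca
H2-T23: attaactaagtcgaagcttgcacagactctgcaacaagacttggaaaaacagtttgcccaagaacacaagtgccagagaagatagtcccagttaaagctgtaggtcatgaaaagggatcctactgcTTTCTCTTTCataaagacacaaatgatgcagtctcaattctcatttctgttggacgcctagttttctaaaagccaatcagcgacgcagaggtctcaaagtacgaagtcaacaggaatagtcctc

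The matches began 25 bases before the start in Cd37 and 50 in Fmnl1, 139 (interferon) and 126 (NF-kB) in B2m, and 124 in H2-T23. Searched on both strands of the 300 base window, GAGGAAGT was present in 14 of 187 member promoters (7.49%) and in 2.76% of all 7778, and ACTTCCTG, another ETS form, in 12 (6.42%) and 3.14%. The interferon response motif was present in 18 (9.63%) and 2.78%, and the NF-kB motif in 2 (1.07%, Nfkb2 and B2m) and 0.141%. TGTGGTTT, a RUNX motif, was in 6 (3.21%) and 0.951%, and the octamer ATGCAAAT in 1 (0.535%) and 1.18%. The median GC content was 61.3% in both sets. Near-identical neighbours such as Trim12a and Trim12c were counted separately, and a match is a description of letters, not a bound site.

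Of 14 lists of immune and related functions, 86 members belonged to at least 1 (34.7% of the members), whereas 173 of all listed genes did (1.65%). The lists were chosen with earlier results of these data known, so these shares are a description and no test. In the list of leukocyte cytoskeleton and migration, 16 of the 18 listed genes were members, with ratios of 3.47 (Lsp1) to 32.3 (Coro1a). Besides Coro1a, its highest levels were Arhgdib, which holds small GTPases inactive, at 128 TPM against 5.03 to 9.52, Arpc1b, a subunit of the Arp2/3 actin nucleator, at 79.6 against 13.6 to 21.4, and Lsp1, a leukocyte actin-binding protein, at 69.5 against 14.6 to 20. Capg, an actin capping protein, at 34.0 against at most 12.8, and Tagap1, at 3.29 against at most 5.28, did not meet the rule. Of the pan-leukocyte surface list 7 of 12 were members: after Cd52, the highest were Ly6e, a lipid-anchored protein induced by interferon, at 167 against 22.2 to 35.2, Laptm5, a lysosomal protein of haematopoietic cells, at 83.2 against 1.89 to 7.42, and Cd37. Clec2d (36.2 against at most 37.1) and Cd82 (30.6 against at most 14.8) were not members.

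Antigen receptor signalling was represented by its shared components. Of the B cell receptor list 5 of 8 listed genes were members: Ptpn6, the adaptor Grap (20.7 TPM against 2.14 to 3.11), the phosphoinositide kinase subunit Pik3cd (20.1 against 2.61 to 4.8), Swap70 (15.7 against 1.60 to 2.86) and the kinase Lyn (9.58 against 1.31 to 2.17). Of the T cell receptor list 3 of 6 were: Thy1 (40.5 against 4.03 to 8.01), the inhibitory kinase Csk (34.3 against 2.75 to 4.41) and the kinase Fyn (13.1 against 2.07 to 4.29). Cd81 at 61.7 against at most 62.5 and Cd72 at 23.2 against at most 8.47 in the first list, and Prkcq at 25.2 against at most 19.6 and Sla2 at 15.1 against at most 15.4 in the second, stayed under the fold threshold. Most genes of the 2 lists, the receptor chains among them, are not in the TPM table.

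Cd74 had the highest level of all members, and most of the levels next to it belonged to antigen presentation, with Actb and Eef1a1 between them. Of the MHC class II list 7 of 11 listed genes were members. Cd74, the invariant chain that guides class II to its peptides, had a TPM of 45.5, 739 and 37.1 at ZT0 and 46.4, 62.2 and 73.4 at ZT12 in WT muscle, and 41.5, 54.2 and 29.8 at ZT0 and 47, 83.5 and 36.7 at ZT12 in TG muscle. H2-Aa, a class II alpha chain, had a TPM of 16.9, 317 and 16.3 at ZT0 and 21.2, 26.9 and 31.6 at ZT12 in WT muscle, and 15.2, 25.5 and 14.1 at ZT0 and 17.4, 33.3 and 17.7 at ZT12 in TG muscle. Both genes were thus measurable in every library, with TG ZT12 replicate 2 second highest. Without WT ZT0 replicate 2, all 3 WT ZT12 libraries lay above the remaining WT ZT0 libraries for both genes, and the TG groups overlapped each other. The beta chains H2-Ab1 (295 against 10.1 to 35.8) and H2-Eb1 (190 against 8.21 to 21.7) followed them. Lgmn, a lysosomal protease, at 21.9 against at most 19.5, and Rfxap, a subunit of the factor that binds class II promoters, at 10.5 against at most 12.9, did not.

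Of the class I list 12 of 15 were members. B2m, the light chain of class I, had a TPM of 82.7, 511 and 80 at ZT0 and 82.1, 121 and 101 at ZT12 in WT muscle, and 75.5, 85.6 and 79.6 at ZT0 and 82.8, 96.5 and 89.3 at ZT12 in TG muscle. Its ratio of 4.24 was smaller than that of H2-K1, a heavy chain at 406 against 36.6 to 53.1 (7.65 times), and Tap1 had the highest of the list. H2-L at 376 against 36.7 to 66.9 and H2-D1 at 331 against 40.8 to 63.6 overlap each other in the files and are near-identical, as are H2-T9 and H2-T22, so their separate levels are uncertain. Calr (105 against at most 75.9) and Pdia3 (37.6 against at most 25.4), chaperones of every secretory cell, were not members. Of the genes left out by symbol alone, Psmb8 (66.3 against 3.65 to 6.19) and Psmb9 (28.6 against 1.41 to 3.76) are immunoproteasome subunits, Ctss (65.2 against 3.91 to 10.9) is a protease of class II presentation, and Itgb7 (22.5 against 0.475 to 1.59), Itgb2 (18.6 against 0.456 to 2.99) and Itga4 (5.52 against 0.538 to 1.49) are leukocyte integrins.

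In the genome the members were most frequent on chromosome 17, with 25 of 514 listed genes there (4.86%), against 3.83% on chromosome 19, 3.29% on chromosome 6 and 2.37% overall. Of the 14 listed genes with H2 symbols (chr17:33996012-37274485, mm10), 13 were members and H2-Ke6 was not. Members followed each other without a listed gene between them in Tap2, H2-Ab1, H2-Aa and H2-Eb1, in H2-D1, H2-L and H2-Q4, and in H2-T23, H2-T9 and H2-T22. On chromosome 6, Gimap4, Gimap6, Gimap1, Tmem176b and Tmem176a formed a run of 5 (chr6:48684578-48845364). The GIMAP genes encode GTPases that support lymphocyte survival, and all 3 listed were members: Gimap6 at 48.9 TPM against 4.29 to 6.89, Gimap4 at 37.5 against 2.19 to 4.28 and Gimap1 at 34.2 against 1.49 to 3.01. The median transcript length was 2520 bases for the members and 2590 for all listed genes.

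Transcription factors of lymphoid and myeloid cells gave 8 members of 21 listed. Ets1, which acts in B and T cells, was at 36.3 TPM against 2.70 to 5.37, and Irf8, needed by B cells, dendritic cells and monocytes, at 24.9 against 1.10 to 2.84. Nfkb2 was at 18 against 2.84 to 4.41, and Spi1, which encodes PU.1, at 15.2 against 1.13 to 3.96. The others were Fli1, Foxp1, Id2 and Elf1. Klf2 (54.6 against at most 22.9) and Cbfb (44.4 against at most 52.0) were not members.

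Secreted signals and their receptors were less represented. Of the chemokine list 2 of 11 were members: Ccl21a, the ligand made by lymph node stroma and lymphatic vessels, at 53.2 TPM against 2.29 to 5.61, and Cxcr4, the receptor for CXCL12, at 10.5 against 0.815 to 1.64. Gm1987, at 53.1 TPM, overlaps Ccl21a on the same strand and is near-identical to it in level. Their separate levels are therefore uncertain, although both were counted as members. Cxcl12 (43.6 against at most 15.4) and Cxcl14 (28.8 against at most 47.9) did not meet the rule. Of the cytokine list 4 of 13 did, among them Tgfb1 (25.2 against 1.73 to 3.82), Tnfrsf1b (6.59 against 0.897 to 2.04) and Il6ra (5.95 against 0.588 to 1.81). Jak1 (56.8 against at most 44.8) and Il6st (42.4 against at most 34.4), used by many cell types, were not members.

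Of the interferon response list 11 of 30 listed genes were members. All 30 were highest in WT ZT0 replicate 2, beside 53.8% of all listed genes. Some led by little, such as Iigp1 at 1.15 times its highest other library, and their order after scaling was not tested. Bst2, the antiviral protein tetherin, was at 45.0 against 8.24 to 14.9, with Irf7 at 22.6 against 1.21 to 2.72 and Irf1 at 22.1 against 2.97 to 4.81. Psme1 (73.3 against at most 29.7) and Ifi27l2a (64.2 against at most 30.7) were not members. The list depended on the scale: after median-of-ratios scaling 3 of its 11 members still met the rule, whereas 7 of 7 class II, 10 of 12 class I, 5 of 5 B cell receptor, 3 of 3 GIMAP and 13 of 16 cytoskeleton members did. Other lists lost members too, with 2 of 4 cytokine, 5 of 8 transcription factor and 2 of 3 T cell receptor members left, and 63 of the 86 members in any list. Of the list of innate sensing 6 of 12 were members, among them Cyba, a subunit of the NADPH oxidase (80.4 against 7.51 to 14.1), Unc93b1, which traffics Toll-like receptors (32.2 against 3.09 to 6.56), Samhd1, which degrades deoxynucleotides (29.8 against 3.83 to 6.44), and Tyrobp, a signalling adaptor of myeloid and NK cells (25.9 against 3.05 to 8.6). Fcer1g (19.8 against at most 9.44) and Irak1 (18.9 against at most 15.3) were not.

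The lists of effector and dividing cells added few. Srgn, the proteoglycan of secretory granules, was at 53.2 against 6.41 to 13.8, and Gzmm at 7.01 against at most 5.91 was not a member. Of 12 listed cell cycle genes, Tubb5, a tubulin, at 71.8 against 11 to 15.9, and Mcm6, a subunit of the replicative helicase, at 6.31 against 0.370 to 1.06, were members, and Pcna (16.2 against at most 7.07) and H2afx (14.8 against at most 8.15) were not. After scaling, Srgn and Mcm6 dropped out.

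**Figure D3:**
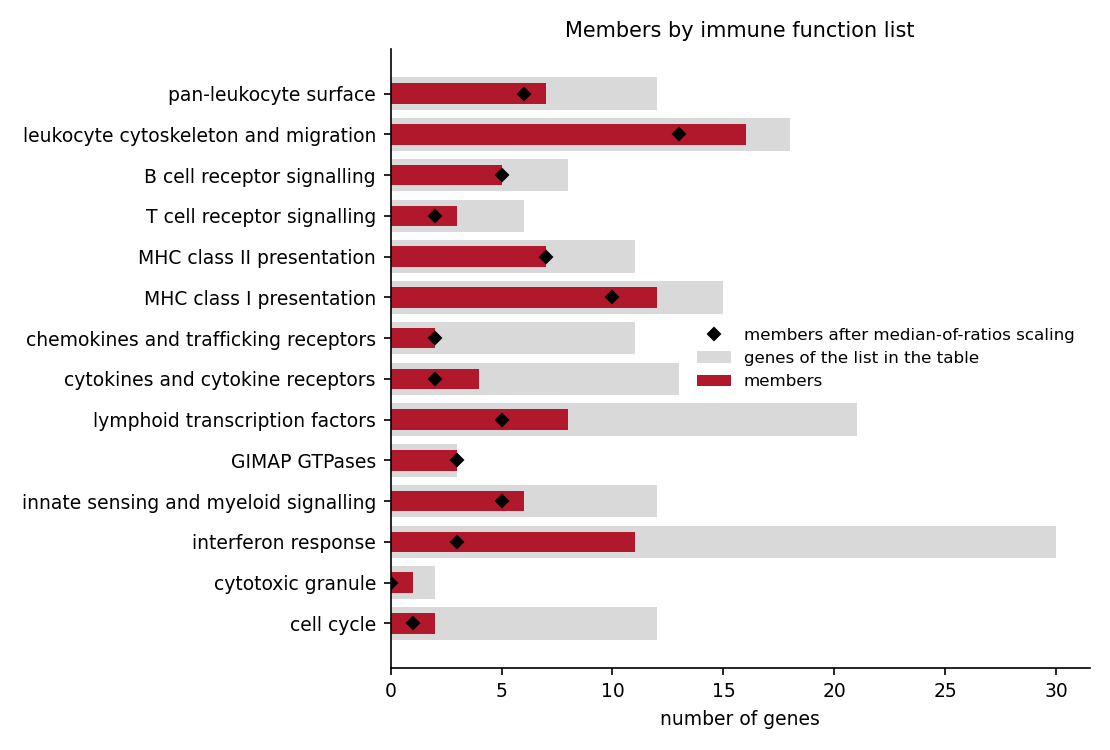
Number of genes (horizontal) of each function list in the table (grey), among the members (red) and among the members after median-of-ratios scaling (diamonds). Cytoskeleton (16 of 18), class I (12 of 15) and GIMAP genes (3 of 3) were members for the most part, and the interferon list dropped from 11 to 3 after scaling.

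Some of the 162 members outside the lists were sorted by known roles after their values were seen, together with list members of the same role. Many of the 162 were left without a group. These groups hold members only, so no share of all listed genes stands beside them. Among general actin genes, Actb, cytoplasmic beta actin, was at 555 TPM against 103 to 158, Cfl1, which severs filaments, at 132 against 22.0 to 35.2, and Tmsb10, which binds actin monomers, at 53.0 against 3.52 to 7.56. A group of 23 such genes, some of them also in the cytoskeleton list, had ratios of 3.04 to 10. Small GTPases and their regulators gave 14 (ratios 3.23 to 7.02), and kinases and phosphatases of lymphocyte signalling 15 (3.05 to 25.6). Adhesion and costimulation gave 7 (5.05 to 14.3), with Cd27, a receptor of B and T cells, at 10.3 against 0.436 to 1.42, and the integrin ligands Icam1 at 11 against 0.905 to 1.78 and Vcam1 at 8.17 against 0.851 to 1.58. Death and NF-kB regulators gave 7 (3.11 to 5.1), and growth arrest, replication and chromatin 8 (3.29 to 7.74). Eef1a1, the translation elongation factor found in most cell types but low in mature muscle, was at 491 against 83.6 to 110 (4.45 times).

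The remaining genes of the larger lists followed their leaders at lower levels. In class II these were Ifi30, a thiol reductase that unfolds antigens, at 48.8 TPM against 4.25 to 7.79, and H2-DMa at 25.2 against 1.17 to 3.39 and H2-DMb1 at 11.9 against 0.588 to 2.71, the chains of the molecule that loads peptides. In class I, Tapbp, which bridges class I to the peptide pump, was at 49 against 11.2 to 15.6, and H2-M3 at 8.88 against 0.996 to 1.74. Hcls1, a cortactin relative of haematopoietic cells, was at 26.6 against 0.783 to 2.5. Tbc1d10c, an inhibitor of calcineurin and Ras in lymphocytes, was at 23.7 against 1.83 to 2.36, and Rassf2 at 14.4 against 0.857 to 1.91. Arhgef1, a GTPase exchange factor that acts below chemokine receptors, was at 55.8 against 4.56 to 9.85, and Sipa1, which switches off Rap1, at 27.1 against 2.37 to 3.86. The gap to the other libraries was widest for Hcls1 and Tbc1d10c in this group, at 10.6 and 10.1 times the highest of them.

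Genes with known roles in B cells or in cells that sample antigen were among those outside the lists. All those named in this paragraph were chosen after their values were seen, and some of them act in other cell types too. Lfng, which modifies Notch and acts in marginal zone B cells, was at 20.9 TPM against 1.38 to 2.6, St6gal1, the sialyltransferase that makes the CD22 ligand, at 10.5 against 0.844 to 1.94, and Icosl, the ligand of the costimulator ICOS, at 11.6 against 0.261 to 1.32. Ly86, the partner of the Toll-like protein RP105, was at 16.1 against 0.62 to 2.51, and Il4i1, an amino acid oxidase induced by interleukin 4, at 19.6 against 1.87 to 2.94. Il4i1 overlaps Gm21948, also a member, so that their reads are uncertain. Timd4, a phosphatidylserine receptor of resident macrophages, was at 12.5 against 0.252 to 1.41, and Mpeg1, perforin-2 of phagocytes, at 12.7 against 0.441 to 2.1. Unlike Timd4 and Mpeg1, none of the 10 listed macrophage markers met the rule. The cell source of these transcripts was not tested.

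Others are tied to quiescence, signalling and metabolism of lymphocytes. Slfn2, which keeps T cells quiescent, was at 34.2 TPM against 1.01 to 3.22, and Btg1, which restrains growth, at 22.3 against 1.69 to 2.88. Dgka, which removes the diacylglycerol that antigen receptors release, was at 25.9 against 2.09 to 3.31, and Prkd2, a kinase that diacylglycerol activates, at 14.8 against 0.795 to 1.38. Rasgrp2, which activates Rap1 for adhesion, was at 17.1 against 1.21 to 2.64. Ucp2, a mitochondrial carrier of immune cells, was at 96.3 against 6.81 to 17.1, and Atp2a3, the calcium pump of haematopoietic cells rather than of muscle fibres, at 21.5 against 1.06 to 3.17. Atp2a1, the pump of fast fibres and a listed fibre marker, was 1.02 times its highest other library. Complement genes were Cfb at 26.1 against 1.27 to 6.33 and C2 at 6.71 against 0.503 to 1.86.

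Levels of the members elsewhere were low but seldom 0. Their median TPM was 16.4 in WT ZT0 replicate 2, and the median over the other libraries of the median member was 2.20. For 110 members the median elsewhere was under 2 TPM, for 186 it was under 5, and for 10 it was at least 20. In WT ZT0 replicate 1, 44% of the members were under 2 TPM, beside 17.5% of all listed genes. The members were well covered where they were high, with a median of 647 reads and 4 under 100 (Flt3l, Bex3, Gngt2 and the microRNA gene Mir6954, at 5 reads). Of the 248, 31 overlap another listed gene and 17 of these on the opposite strand, and Mir5107 lies within Cd74.

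Cell type markers were read beside the label of lymphoid transcripts. Within the TPM table this is a description and no check of the label, because the rule chose the members on the same values. There the only B cell marker was Cd37 and T cell markers were absent, since the table starts at 1 TPM in WT ZT0 replicate 1. All 6 listed pan-leukocyte markers (Coro1a, Cd52, Cd53, Laptm5, Lcp1 and Arhgdib) were members, and they summed to 666 TPM in WT ZT0 replicate 2 and to 11.8 to 30.8 in the others. None of the 10 macrophage markers was a member. They summed to 337 TPM against 74.6 to 216, of which Lyz2 made 203, and their ratios ran from 0.491 (Cd163) to 1.98 (Lyz2).

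Markers of other cell types gave these values. The 3 listed genes of lymph node stroma and high endothelium summed to 68.1 against 8.27 to 14.8 TPM, with Ccl21a 9.49, Lyve1 1.68 and Pdpn 0.730 times the highest other library. The 2 listed plasma cell markers summed to 32.9 against 20.5 to 29 TPM. Zbtb46, the 1 listed dendritic cell marker, was at 2.08 against 0.164 to 1.65. Red cell markers were low, at 86.2 against 110 to 4560 TPM. Adipocyte markers summed to 379 against 57.8 to 363, endothelial markers to 85.8 against 35.0 to 70.1, and fibro-adipogenic markers to 416 against 403 to 647. The part of adipocyte, endothelial and macrophage RNA in the members' levels was not tested. In bulk RNA, more cells of a type and more RNA per cell cannot be told apart.

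**Figure D4:**
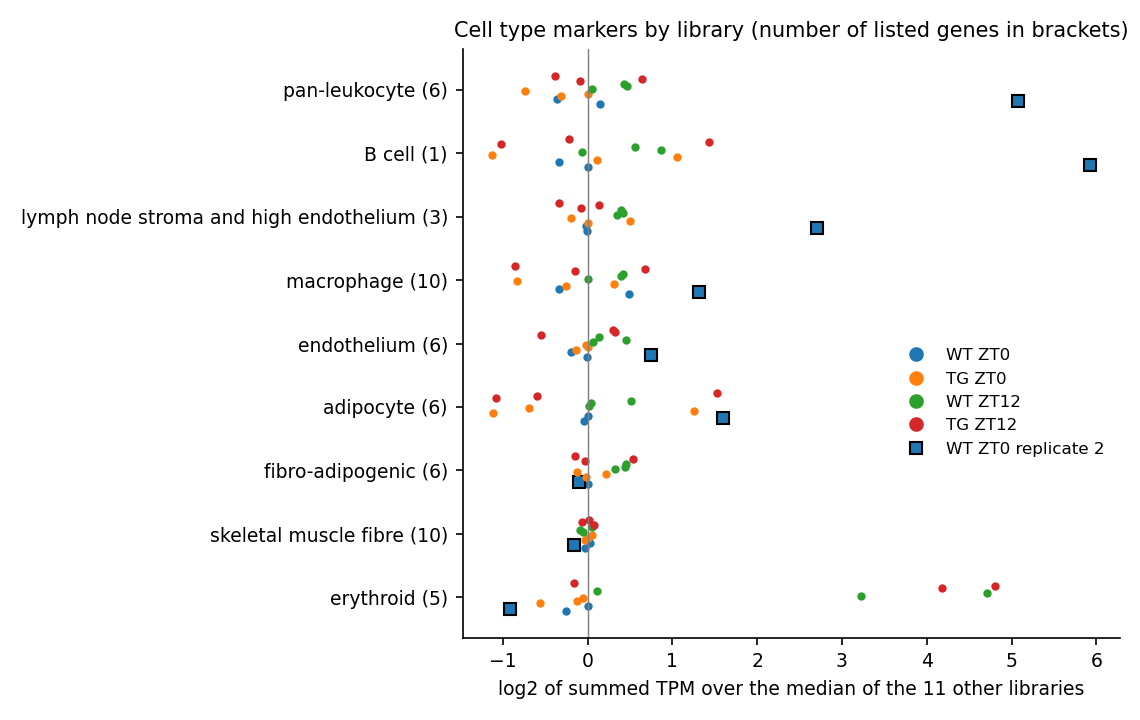
Log2 of the summed TPM of cell type markers in each library over the median of the 11 other libraries (horizontal). Lists with listed genes are shown (vertical), except plasma cell and dendritic cell, coloured by group, with WT ZT0 replicate 2 as a square. The square is far to the right for the pan-leukocyte markers (666 against at most 30.8 TPM) and lowest for the erythroid markers (86.2 against at least 110 TPM).

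Markers absent from the TPM table were read from the deposited log2 values of the ZT0 libraries. These are drawn towards each gene's mean and are coarse, with 338 distinct sets of values among the 3074 such genes. They therefore give an order and no fold, and the width of a lead is no measure of fold. WT ZT0 replicate 2 was the highest of 6 for 37.4% of all genes with values and for 48.4% of those outside the TPM table. It was so for all 248 members, which follows from the rule that chose them and is no separate result. Of the genes outside the TPM table it led by at least 0.1, a gap chosen after the values were seen, for 48 (1.56%). All 8 B cell markers were highest there and 6 led by that gap: Cd79a, a chain of the B cell receptor, stood at 3.19 against 2.84 to 2.85, Cd79b at 3.22 against 2.86 and Ms4a1 (CD20) at 1.93 against 1.78. All 12 T cell markers were highest there and 8 led by the gap, with the kinase Lck at 2.20 against 2.02, Cd8b1 at 1.93 against 1.78 and Cd3e at 1.45 against 1.34. Ptprc, which encodes the leukocyte marker CD45, stood at 2.43 against at most 2.24.

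Among the genes outside the TPM table the widest lead was that of Ltb, lymphotoxin beta, at 0.45, and Ptprcap, a partner of CD45, led by 0.37. Glycam1, a ligand of L-selectin on high endothelial venules, and Cxcl13, the chemokine of B cell follicles, were the 2 of 7 lymph node stroma genes past the gap. Of the other leukocyte markers, 6 of 6 neutrophil, 5 of 6 dendritic cell, 2 of 2 plasma cell and 6 of 6 NK cell markers were also highest in WT ZT0 replicate 2, and 0, 0, 0 and 1 of them led by the gap. Leads were narrow at low values, as for the dendritic cell marker Flt3 and the NK cell marker Klrb1c, both at -2.73 against -2.74. The part of level in the counts by cell type was not tested. The neutrophil marker S100a9, at 1.28 against 1.18, missed the gap only beyond the second decimal. Cd22, Cd8a and Nkg7, each at 1.37 against at most 1.27, and Cxcl13, at 1.54 against at most 1.44, passed it only beyond the second decimal. The counts past the gap therefore turn in part on where it was set. In the ZT12 table, Cd79a, Cd79b, Ltb and Ptprcap each varied by 0.01 over the 6 libraries, and Cd3e and Glycam1 were listed at 0 in all. Cd79a and Ptprcap were near -2.6 there, a low value at which differences are narrow, so this range does not show equal levels. What a value of 0 in all libraries stands for is not given in the sources used here.

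The members were also compared by genotype and time in the other 11 libraries, in which WT ZT0 has 2 libraries. These values are not independent of the choice of members: the rule used the highest of the 11, whatever its group. The table also requires 1 TPM in WT ZT0 replicate 1, which is 1 of the 2 WT ZT0 libraries here. That requirement can favour genes that are high in this group. Its part in the comparisons with WT ZT0 was not tested. In WT muscle their summed TPM was 1450 and 1220 in replicates 1 and 3 at ZT0 and 1470, 1750 and 1630 at ZT12. In TG muscle it was 1290, 1510 and 1230 at ZT0 and 1230, 1670 and 1430 at ZT12, and WT ZT0 replicate 2 held 10400. That is 2.32% of the listed TPM in the latter and 0.281 to 0.391% in the others. WT ZT12 replicate 2 was the highest of the 11 for 80 members (32.3%, against 11.7% of all genes) and TG ZT12 replicate 2 for 75 (30.2%, against 36.7%). TG ZT12 replicate 1 was the lowest for 109 (44%), beside 50.9% of all genes. The groups overlapped in the sum, apart from WT ZT12, whose libraries all lay above WT ZT0 replicates 1 and 3.

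**Figure D5:**
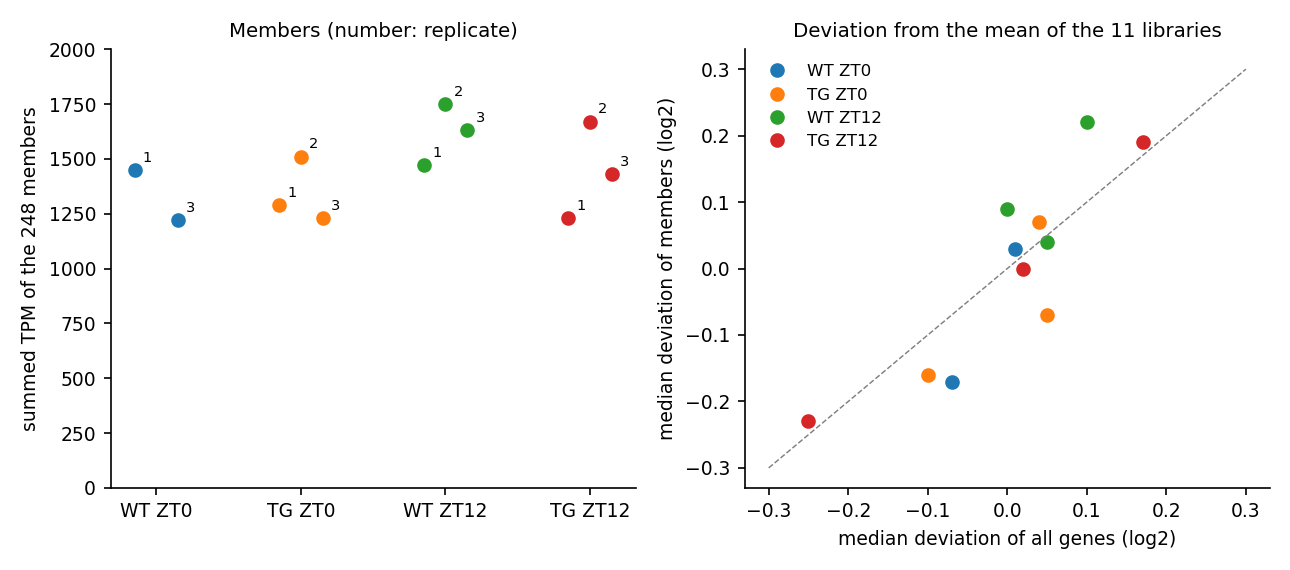
Left, summed TPM of the 248 members in the 11 other libraries by group, numbered by replicate; right, the median deviation of the members from the mean of the 11 libraries (log2, vertical) against that of all listed genes (horizontal), with a line of equality. The sums range from 1220 to 1750 TPM, and the lowest library on both axes is TG ZT12 replicate 1 at -0.23 and -0.25.

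TG and WT muscle did not differ in a called member at either time. limma on log2(TPM + 1), with Benjamini-Hochberg (BH) adjustment over the 10397 genes tested and a threshold of 0.05, called 0 genes at ZT12 (0%) and 0 of the 246 members tested. At an unadjusted p under 0.05 there were 7 members (2.85%) and 195 genes (1.88%), and limma-voom on recovered reads also called 0. The median log2 change of TG against WT was -0.13 over the members and -0.07 over all genes. At ZT0 limma likewise called 0 genes (0%) and 0 members, with 3 members (1.22%) and 89 genes (0.856%) under 0.05 unadjusted, 0 by limma-voom, and medians of 0.00 and 0.02. The smallest unadjusted p among members was that of Tmem176a at ZT12 (log2 change -0.62, SE 0.17, limma BH-adjusted p = 0.999), a membrane protein of dendritic cells and macrophages. These values do not show that members were equal between the genotypes.

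Between the times 1 member passed the test, and its call depended on single libraries. Trp53i11, named for its induction by p53 and in no function list, had a TPM, without WT ZT0 replicate 2, of 1.52 and 0.85 at ZT0 and 3.64, 4.08 and 3.24 at ZT12 in WT muscle, and 1.27, 1.36 and 1.47 at ZT0 and 3.27, 3.59 and 4.03 at ZT12 in TG muscle. Every ZT12 library was above every ZT0 library but WT ZT0 replicate 2, which held 13.2 TPM. On the log2(TPM + 1) scale it rose by 1.10 (SE 0.16, limma BH-adjusted p = 0.0213) in WT and by 0.97 (SE 0.14, adjusted p = 0.019) in TG. It was 1 of 15 genes called in WT (0.144% of those tested) and 1 of 21 in TG (0.202%); those called higher at ZT12 were 0.0481% and 0.0673% of the genes tested. Its calls in WT and TG were both lost with WT ZT0 replicate 2 in the fit and with a replicate block, and a filter of 5 TPM in 3 libraries leaves it untested. The WT call was also lost on leaving out any 1 of the 5 WT libraries, and the TG call on leaving out any 1 TG ZT0 library or TG ZT12 replicate 3, or with the 2 groups alone. With 1 library left out, the genes called ranged from 2 to 72 in WT and from 8 to 71 in TG.

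The remaining members did not pass the test. In WT, 213 of 246 (86.6%) had a higher fitted mean at ZT12, beside 72.2% of all genes, with a median log2 difference of 0.20 over the members and 0.08 over all genes. In TG 151 (61.4%) were higher, beside 46.7%, with medians of 0.05 and -0.01. The smallest p-values below the calls were those of 2 genes in WT: Rab8a, a GTPase of membrane traffic (log2 difference 0.52, SE 0.12, limma adjusted p = 0.197), and Tmsb10 (0.74, SE 0.18, adjusted p = 0.255). Ccl21a stood 0.66 higher (SE 0.19, adjusted p = 0.386). Over the class II list the median difference was 0.49 in WT and 0.29 in TG, with 0 of 7 called in either. Listed reads were 9.21e+06 to 1.15e+07 in the 5 ZT0 libraries of this fit and 1.31e+07 to 2.02e+07 in the 6 ZT12 libraries, so depth moved with time and its part in these differences was not tested.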

How the data were processed

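Poly(A) RNA of mouse gastrocnemius was sequenced from 12 libraries with a NEBNext Ultra RNA kit, per the labels' protocols; whether strand was used in counting is not given in the sources used here. Reads were handled with STAR, HOMER 4.11.1, bcl2fastq and DESeq2 (build mm10), per the submitters' processing notes. The authors deposited TPM per gene for 12 libraries, and, per the file headers, 2 tables made with HOMER that hold, for the 6 libraries of each time, values headed FPKM that are on a log2 scale and shrunk to the mean of the gene. Their deposited fold changes and p-values were not used here.

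Members and gene lists were chosen with earlier results of these data known. The design assumed counts. The files hold TPM, so its fallback was used: limma 3.58.1 (trend, R 4.3.3) on log2(TPM + 1), a mean per group, 11 libraries without WT ZT0 replicate 2, which chose the members. The filter was 1 TPM or more in 3 or more libraries, which left out Mcm6 and Icosl. Reads were recovered as TPM times length, whole within 0.1 read for 99.78 to 99.99% of values judged (under 500 reads). One read on 1 kb equals 0.0411 to 0.0895 TPM. Limma-voom used these reads.

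Named genes were Cd52, Coro1a and Cd37, the 10 highest ratios, up to 4 members per list by level, up to 2 listed genes per list outside the rule, those nearest the thresholds and called members. Other names were chosen after their values were seen. Same-numbered libraries did not deviate together in the median (correlation -0.01 over 15 pairs, range -0.35 to 0.29), so no block was used. Alternatives were the 12 libraries, other scalings, filters, pseudocounts and thresholds, the 2 groups alone, a replicate block and each library left out. Python 3.11.15, pandas 2.3.3 and matplotlib 3.10.9 were used.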

Additional observations from a re-analysis of the deposited data

How the results depend on the processing

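The number of members was 546 at a fold of 2 and 97 at 5, with median ratios of 2.86 and 7.22, and 162 after median-of-ratios and 163 after upper-quartile scaling. Leaving out 1 of the other 11 libraries gave 248 to 267 members and median ratios of 4.36 to 4.43. The TPM threshold (2 or 10) moved neither by over 1.5 times.

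No genotype contrast called a member under any alternative. Genes called between genotypes rose from 0 to 1 at ZT0 with the 2 groups alone and to 2 at ZT12 without TG ZT12 replicate 1 (range 0 to 2 over libraries left out). Between times in TG, genes called moved from 21 to 49 (median-of-ratios), 49 (upper-quartile), 10 (2 groups alone) and 47 (limma-voom), and to 8 to 71 with a library left out: 10 without TG ZT0 replicate 1, 8 without replicate 2, 10 without replicate 3 and 71 without TG ZT12 replicate 1. In WT they moved from 15 to 51, 42, 132 and 48 in the same order, and to 2 to 72: 2 without WT ZT0 replicate 1, 4 without replicate 3, 6, 7 and 4 without WT ZT12 replicates 1, 2 and 3, 72 without TG ZT12 replicate 1 and 41 without TG ZT12 replicate 2.

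The 1 member called between times, Trp53i11, was lost (0 members) in TG and WT with 12 libraries and with a filter of 5 TPM, which leaves it untested; with the 2 groups alone, 0 members were called in TG and 2 in WT. Leaving out a library gave 0 to 1 members in each: 0 in TG on leaving out any 1 TG ZT0 library or TG ZT12 replicate 3, and 0 in WT on leaving out any 1 WT library. The replicate numbers showed no pairing (median correlation -0.01, range -0.35 to 0.29), but these few pairs cannot exclude one. With the replicate block, 0 members were called between times in TG and 0 in WT. Genes called with it were 0 in TG against WT at ZT12 and 0 at ZT0. Between the times they were 19 in TG and 12 in WT. The cause of these moves was not tested. In WT ZT0 replicate 2, 4 members had under 100 reads. In the other 11 libraries, which the tests used, the median member was at 2.2 TPM. Members there rested on fewer reads, and how far this limited the tests was not tested.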
